A study of Mus musculus with 32 samples.

Results

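The genes described here are the collagen, laminin and integrin chains expressed in presomitic mesoderm (PSM) made in culture, the tissue that is cut into somites as the body axis grows. They were taken by symbol, as every collagen alpha chain, laminin chain and numbered integrin chain in the deposited count table with a mean of at least 1 CPM (the count of a gene for each M counts of its library, M for mega) over its 32 columns. Of 76 matching symbols among 21886 genes, 48 met that level: 28 of 44 collagens, 6 of 11 laminins and 14 of 21 integrins. The chains just inside it were Itgb7 (1.07 CPM), Itga4 (1.136 CPM) and Itgb2 (1.59 CPM), and those just outside were Itga7 (0.812 CPM) and Itga2b (0.798 CPM). Itgav carries no number in its symbol and so was not matched. It averaged 29.5 CPM in Ex5 and 32.2 CPM in Ex4.

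The cells were mouse epiblast stem cells, a pluripotent cell type, of a line based on AES0204 in which luciferase reports the activity of Hes7, a repressor at the core of the segmentation clock. All dishes were coated with fibronectin and kept for 30 h in SB431542 (10 µM), LDN193189 (250 nM), bFGF (20 ng/ml) and the Wnt agonist CHIR99021 (10 µM), after which CHIR99021 was lowered to 1 µM. Ex5 and Ex4 are independent time courses of 16 libraries each, labelled 165 to 425 min in Ex5 and 155 to 405 min in Ex4. Each library is 1 dish of the same reporter line, each time point has 1 library per experiment, and the event that the minutes are counted from is not given in the sources used here.

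Basement membranes are thin sheets of matrix built from a network of type IV collagen and a network of laminin. Laminins are trimers of an alpha, a beta and a gamma chain, while collagens are triple helices of alpha chains. Integrins are pairs of an alpha and a beta chain that hold cells to these matrices and to fibronectin. In the embryo a laminin matrix and a fibronectin matrix both line the PSM, and the fibronectin receptor of alpha5 and beta1 is needed for somites to form.

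The libraries held 16.1 to 28.6 M counts in Ex5 (median 22.2 M counts) and 19.3 to 29.5 M counts in Ex4 (median 24.1 M counts). All 11 PSM markers, among them Tbx6, Msgn1 and Dll1, were expressed, with summed medians of 3949 CPM in Ex5 and 3552 CPM in Ex4. Of 6 neural markers 5 were expressed, with summed medians of 481 CPM in Ex5 and 430 CPM in Ex4. Summed medians were 69.6 CPM in Ex5 and 65.0 CPM in Ex4 for 8 markers of somites and anterior PSM. They were 42.0 and 43.6 CPM for 5 definitive endoderm markers, and 2.76 and 3.69 CPM for 8 of lateral, cardiac and vascular mesoderm. Of 9 epiblast markers 5 were expressed. The sum of all 9 ranged from 256.8 to 359 CPM in Ex5 and from 315 to 447 CPM in Ex4, and Pou5f1, Cdh1, Sox2 and Epcam fell with time while Dnmt3b rose. Extraembryonic endoderm, a rich source of laminin and type IV collagen in the embryo, had 2 of 8 markers expressed, all 8 summing to 13.2 to 18.8 CPM in Ex5 and 11.2 to 14.0 CPM in Ex4, with Afp, Ttr, Thbd and Sox7 under 0.1 CPM. The 5 fibroblast markers summed to 46.6 to 55.6 CPM in Ex5 and 50.5 to 62.1 CPM in Ex4, most of it Pdgfra (42.6 and 48.3 CPM, means), with Thy1 at 7.88 and 6.94 CPM and Twist2 at 1.49 and 0.766 CPM, while Dcn and Lum averaged under 0.1 CPM over the 32 libraries. In such bulk libraries fewer cells of a type and less RNA per cell cannot be told apart.

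Every gene was fitted with a level and a straight slope in each experiment and a rhythm shared by both (edgeR quasi-likelihood test over 11772 genes, Benjamini-Hochberg adjusted p under 0.05). A slope is the log2 change per 100 min, and a trend is the mean of both slopes. A level difference is Ex5 minus Ex4 on the log2 scale at 285 min, and since each experiment is 1 culture series, it cannot be told apart from any batch of culture or library making. All 48 chains passed the expression filter of the test. Levels of different genes are compared as TPM, reads per length of transcript scaled to the same total in each library.

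Of the 48 chains 29 passed the trend test, a share close to the 53.3% of all tested genes: 16 rose (background 26.8%) and 13 fell (background 26.6%). The slopes had the same sign in both experiments for 15 of those that rose (background 25.4%) and 12 of those that fell (background 25.1%). Among collagens 8 rose and 9 fell of 28, among laminins 3 rose and 1 fell of 6, and among integrins 5 rose and 3 fell of 14. The median size of the slope, regardless of sign, was 0.11 for the 48 chains and 0.06 for all tested genes, but the chains were also of lower abundance, with a median of 7.75 CPM against 35.1 CPM. In Ex5 the last 4 libraries all lay above the first 4 for 11 chains (background 20%) and all below them for 14 (background 19.3%). In Ex4 this held for 11 (background 12.6%) and for 8 (background 11.4%). In both experiments Col3a1, Itgb5, Itga5, Itga9, Itga10 and Lama1 were wholly higher at the end, and Col1a2, Col4a6, Col22a1, Col20a1, Itga6, Itga3 and Itgb7 wholly lower. The share of all tested genes that did so in both experiments was not computed.

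**Figure D1:**
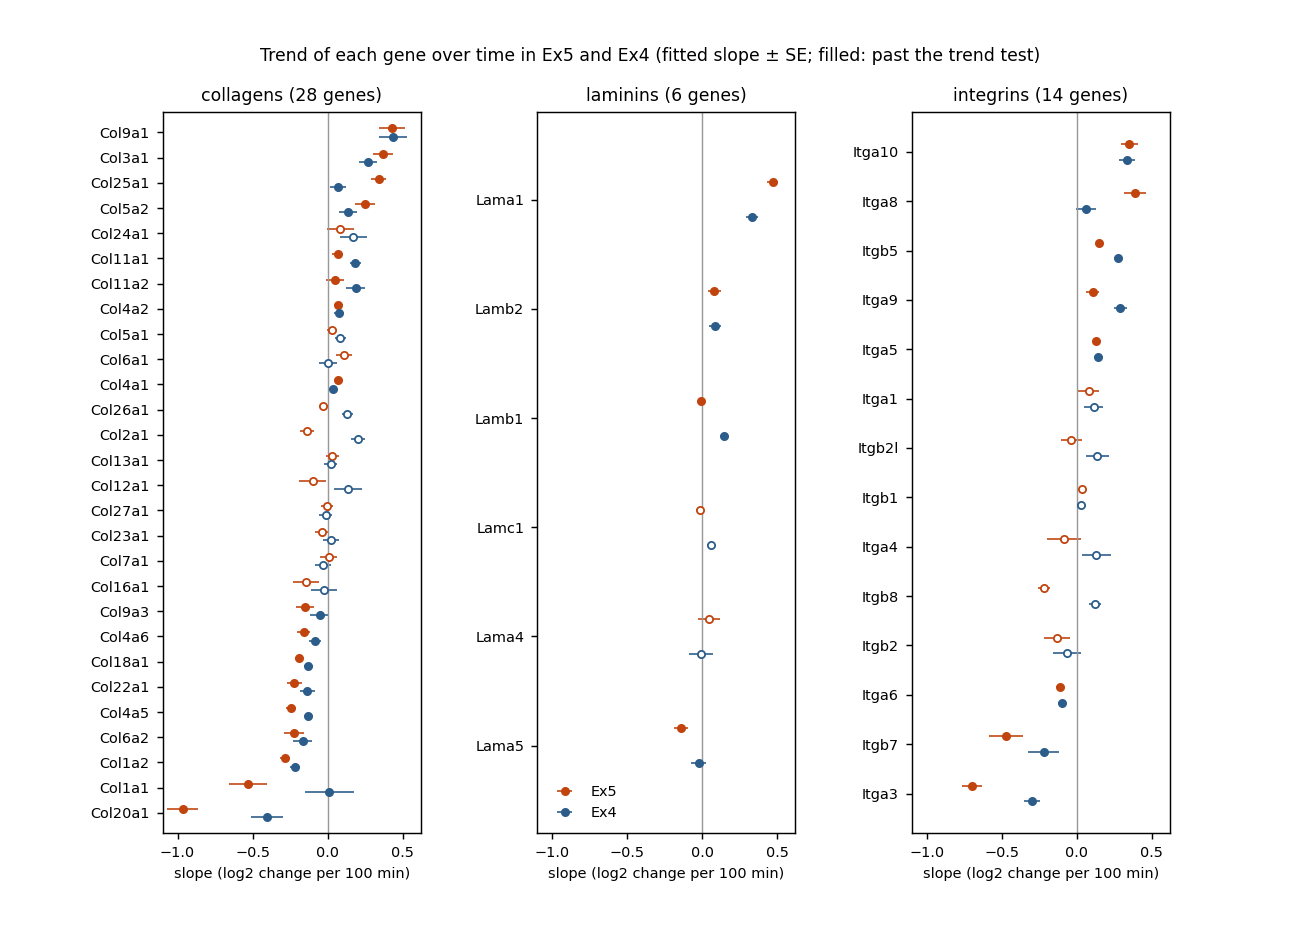
Fitted slope of each of the 48 genes (x axis, log2 change per 100 min, ± SE) in Ex5 (orange) and Ex4 (blue), by family and sorted by the mean of both slopes. Filled points mark genes whose mean slope passed the trend test, so that Lamb1 is filled though its Ex5 slope is near 0; Col9a1, Lama1 and Itga10 stand at the rising end of their families, Col20a1, Lama5 and Itga3 at the falling end.

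Of the 48 chains 38 passed the level test (background 55.1%), 21 higher in Ex5 (background 27.4%) and 17 lower (background 27.7%). At 1.5-fold or more, 3 were higher in Ex5 (background 1.79%) and 7 lower (background 2.23%). The CPM ranges of the experiments did not overlap for 6 chains (background 3.53%), with Col26a1 and Col23a1 above in Ex5 (background 1.67%) and Col18a1, Col4a5, Col4a6 and Itga6 below (background 1.86%). The summed CPM of each family was nearly the same in both experiments, with medians of 614 in Ex5 and 622 in Ex4 for collagens, 1142 and 1126 for laminins, and 685 and 682 for integrins.

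Among the ligands, the type IV collagens come first. Col4a1 and Col4a2 encode the alpha1 and alpha2 chains of the trimer found in nearly all basement membranes, and their genes lie head to head on chromosome 8. Col4a1 (ENSMUSG00000031502.11) spans chr8:11198423-11312826 on the minus strand and Col4a2 (ENSMUSG00000031503.13) chr8:11312805-11449287 on the plus strand in GRCm38, so that their first exons overlap by 22 bases. The chains alpha5 and alpha6, found in certain basement membranes, are encoded by a second such pair on chromosome X. These are Col4a5 (chr X, 141475385 to 141689234, plus strand) and Col4a6 (chr X, 141165403 to 141474076, minus strand), 1308 bases apart. The promoter windows of these 4 genes, 250 bases before to 50 after the start, are given because each pair moved together in the data below. They are taken from RefSeq (GRCm38.p6) and are written 5′ to 3′ on each gene's own strand. In the first pair, capitals mark the 78 bases that both windows hold, on opposite strands (chr8:11312777-11312854). In the second pair, whose windows are 842 bases apart, capitals mark GGGCGG (the Sp1 box) or CCAAT on either strand.
Col4a1, chr8:11312777-11313076, minus strand: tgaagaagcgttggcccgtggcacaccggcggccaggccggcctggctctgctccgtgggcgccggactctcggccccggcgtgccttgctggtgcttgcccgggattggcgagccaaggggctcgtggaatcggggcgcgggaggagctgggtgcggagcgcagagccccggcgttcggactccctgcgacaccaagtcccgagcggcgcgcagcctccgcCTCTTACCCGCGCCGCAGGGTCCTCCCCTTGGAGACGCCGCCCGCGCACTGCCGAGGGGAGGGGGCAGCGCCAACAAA
Col4a2, chr8:11312555-11312854, plus strand: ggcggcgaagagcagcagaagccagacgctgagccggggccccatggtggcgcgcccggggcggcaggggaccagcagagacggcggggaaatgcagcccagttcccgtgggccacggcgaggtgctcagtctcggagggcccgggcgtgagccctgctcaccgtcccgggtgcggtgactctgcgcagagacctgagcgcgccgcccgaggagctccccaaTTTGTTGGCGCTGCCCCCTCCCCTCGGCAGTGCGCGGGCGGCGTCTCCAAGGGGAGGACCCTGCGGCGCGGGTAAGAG
Col4a5, chrX:141475169-141475468, plus strand: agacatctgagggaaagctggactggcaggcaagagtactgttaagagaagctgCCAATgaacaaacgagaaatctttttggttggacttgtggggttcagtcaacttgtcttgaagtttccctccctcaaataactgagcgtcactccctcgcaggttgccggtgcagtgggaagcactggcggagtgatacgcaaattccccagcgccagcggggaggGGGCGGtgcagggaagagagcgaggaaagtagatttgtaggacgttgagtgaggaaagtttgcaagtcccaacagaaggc
Col4a6, chrX:141474027-141474326, minus strand: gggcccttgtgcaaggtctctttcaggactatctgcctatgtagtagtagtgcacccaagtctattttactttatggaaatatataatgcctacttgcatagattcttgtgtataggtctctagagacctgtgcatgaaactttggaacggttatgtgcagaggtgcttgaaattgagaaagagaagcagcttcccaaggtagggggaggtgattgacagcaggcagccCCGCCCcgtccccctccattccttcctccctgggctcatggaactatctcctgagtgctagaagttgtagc
The Col4a1 and Col4a2 windows had a G and C content of 74.0% and 73.7%, and those of Col4a5 and Col4a6 52.7% and 48.3%.

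Col4a1 measured 132.5 to 178 CPM in Ex5 (median 162), against 109 to 139 CPM in Ex4 (median 130). Col4a2 measured 59.0 to 76.6 CPM in Ex5 (median 67.2), against 43.8 to 60.2 CPM in Ex4 (median 52.2). Both genes were lowest in early libraries and highest at 385 min in Ex5, and their ranges overlapped between the experiments. Their levels were higher in Ex5 by log2 0.32 ± 0.03 (SE) and 0.35 ± 0.03 (edgeR, adjusted p = 1.33e-13 and 1.41e-11), that is 1.25- and 1.27-fold. Both rose with time, by a slope of 0.05 ± 0.02 for Col4a1 and 0.07 ± 0.02 for Col4a2 (edgeR, adjusted p = 0.0123 and 0.00681). The TPM ratio of Col4a1 to Col4a2 was 1.90 to 2.34 in Ex5 (median 2.14) and 1.91 to 2.40 in Ex4 (median 2.173), so the ranges of this proportion were nearly the same in both experiments. In both experiments the last 4 libraries overlapped the first 4 for both genes. The trend of Col4a1 did not pass in Ex4 alone (slope 0.03, edgeR, adjusted p = 0.429). That of Col4a2 did not pass in Ex5 alone (edgeR, adjusted p = 0.082) or in Ex4 alone (0.065). With the time window held to 165 to 405 min, the trend of Col4a2 did not pass the threshold either (edgeR, adjusted p = 0.0635).

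The second pair ran the other way. Col4a5 measured 12.6 to 20.3 CPM in Ex5 (median 16.3), against 22.6 to 31.3 CPM in Ex4 (median 28.7). Col4a6 measured 10.1 to 15.2 CPM in Ex5 (median 12.7), against 19.9 to 26.9 CPM in Ex4 (median 22.4). For both genes all Ex5 libraries lay below all Ex4 libraries. The differences were log2 -0.76 ± 0.03 and -0.86 ± 0.04 (edgeR, adjusted p = 2.29e-21 and 2.93e-19). Both fell with time, Col4a5 by a slope of -0.19 ± 0.02 and Col4a6 by -0.12 ± 0.03 (edgeR, adjusted p = 1.27e-08 and 9.26e-04). Per length, the alpha5 and alpha6 transcripts together made up 0.124 of the alpha1 and alpha2 transcripts in Ex5 (median ratio of TPM) and 0.277 in Ex4. That ratio averaged 0.105 in the last 4 libraries and 0.158 in the first 4 of Ex5, and 0.256 and 0.320 in those of Ex4.

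Col18a1, whose collagen carries heparan sulfate chains and releases endostatin, stood with the second pair. It measured 76.5 to 107 CPM in Ex5 (median 84.3), against 119 to 172 CPM in Ex4 (median 142), and the ranges did not overlap. It was lower in Ex5 (log2 -0.69 ± 0.03, edgeR, adjusted p = 1.03e-21) and fell with a slope of -0.16 ± 0.02 (adjusted p = 2.18e-08). Its highest libraries were those of 225 min in Ex5 and 185 min in Ex4, and its lowest those of 325 min in Ex5 and 405 min in Ex4. Col7a1, the collagen of the anchoring fibrils of skin, was at 5.96 to 9.95 CPM in Ex5 and 6.96 to 10.0 CPM in Ex4 and passed none of the tests.

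Of the laminins, Lamb1 stood highest per length at 194 ± 11.5 TPM in Ex5 and 171 ± 16.8 TPM in Ex4 (SD), with Lamc1 next at 88.6 ± 7.52 and 97.4 ± 6.10 TPM. Lamb1, the beta1 chain, measured 505 to 595 CPM in Ex5 (median 551), against 409 to 542 CPM in Ex4 (median 474). Lamc1, the gamma1 chain that most laminins share, measured 183 to 227 CPM in Ex5 (median 215), against 205.5 to 251.5 CPM in Ex4 (median 222). Lamb1 was higher in Ex5 (log2 0.21 ± 0.02, edgeR, adjusted p = 1.02e-09) and Lamc1 lower (log2 -0.10 ± 0.03, adjusted p = 0.00324), with overlapping ranges for both. Per length, Lamb1 stood at 2.18 times Lamc1 in Ex5 and 1.79 times in Ex4 (median TPM ratios), and these ranges did not overlap (2.02 to 2.39 in Ex5, 1.58 to 1.92 in Ex4). In Ex4 the last 4 Lamb1 libraries all lay above the first 4. In Ex5 they did not, and the slope of Lamb1 was -0.01 ± 0.02 in Ex5 and 0.14 ± 0.02 in Ex4. Its mean slope of 0.07 ± 0.02 passed the trend test (edgeR, adjusted p = 8.08e-04) but turned negative in a fit of Ex5 alone.

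Of the 2 main laminin alpha chains Lama1 rose in both experiments, and Lama5 fell by the mean of both slopes. Lama1, the alpha chain of the first laminin laid down in the embryo, measured 80.7 to 196 CPM in Ex5 (median 124), against 86.7 to 163 CPM in Ex4 (median 126). It was lowest at 165 min and highest at 425 min in Ex5, and lowest at 200 min and highest at 405 min in Ex4. The mean of the last 4 libraries was 187 CPM in Ex5, against 94.6 CPM in the first 4, and in Ex4 it was 147 CPM against 93.3 CPM. Its slope of 0.40 ± 0.03 (edgeR, adjusted p = 3.73e-14) comes to 2.00-fold over 250 min, and its level at 285 min did not pass the test between experiments (log2 0.08 ± 0.04, adjusted p = 0.121). Lama5, the alpha5 chain, measured 160.0 to 284 CPM in Ex5 (median 215), against 258 to 350.4 CPM in Ex4 (median 288). The ranges met through 1 Ex5 library, that of 180 min, which was the highest in Ex5, and the lowest was that of 270 min. Lama5 was lower in Ex5 (log2 -0.45 ± 0.05, edgeR, adjusted p = 1.15e-09) and fell with a slope of -0.08 ± 0.04 (adjusted p = 0.0415). The slope of Lama5 was -0.14 ± 0.05 in Ex5 and -0.02 ± 0.05 in Ex4, and Ex4 alone gave no trend call (edgeR, adjusted p = 0.566). The difference between these slopes did not pass the test (edgeR, adjusted p = 0.2005). The call on the mean slope was lost on leaving out any of 14 libraries in turn (edgeR, adjusted p at most 0.0857) and with DESeq2 (0.0743).

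Set per length, Lama1 stood at 1.05 times Lama5 in the last 4 libraries of Ex5, against 0.439 times in the first 4. In Ex4 the same ratio was 0.601 in the last 4 libraries, against 0.362 in the first 4. The 3 expressed alpha chains together made up 1.30 times the Lamc1 transcript in Ex5 and 1.43 times in Ex4 (medians), with overlapping ranges of 1.17 to 1.496 in Ex5 and 1.34 to 1.498 in Ex4. Lamb2, the beta2 chain known from nerve endings and kidney, was a minor beta chain, at 15.6 to 22.1 CPM in Ex5 (median 18.4) and 17.3 to 24.6 CPM in Ex4 (median 21.6). It was lower in Ex5 (log2 -0.23 ± 0.04, edgeR, adjusted p = 3.27e-05) and rose with a slope of 0.08 ± 0.03 (adjusted p = 0.0223), a call lost without the Ex5 library of 165 min (0.0534) or the Ex4 library of 155 min (0.0709). Lama4, best known from blood vessels, was at 2.06 to 3.83 CPM in Ex5 (median 2.93) and 2.095 to 2.92 CPM in Ex4 (median 2.48), with a level difference of log2 0.25 ± 0.08 (edgeR, adjusted p = 0.00946) and no trend call (adjusted p = 0.819).

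The fibrillar collagens, which form the fibres of connective tissue, stood below Col4a1 throughout. Col5a1 led them with 20.4 ± 1.70 TPM in Ex5 and 18.9 ± 1.58 TPM in Ex4 (SD over 16 libraries each), against 74.5 ± 5.14 and 61.5 ± 3.65 TPM for Col4a1. Of the 10 fibrillar chains 4 rose (Col11a1, Col11a2, Col5a2 and Col3a1) and 2 fell (Col1a2 and Col1a1). Col5a1 encodes the type V collagen that starts fibrils, measured 44.0 to 57.3 CPM in Ex5 and 36.9 to 51.1 CPM in Ex4, and was higher in Ex5 by log2 0.14 ± 0.04 (edgeR, adjusted p = 8.61e-04). Its slope was 0.06 ± 0.02 (adjusted p = 0.0559). Type XI collagen chains were at 20.97 to 28.6 CPM in Ex5 and 18.3 to 31.8 CPM in Ex4 for Col11a1 and at 9.33 to 16.8 CPM in Ex5 and 7.96 to 12.7 CPM in Ex4 for Col11a2. Their slopes were 0.12 ± 0.03 and 0.12 ± 0.05 (edgeR, adjusted p = 1.18e-04 and 0.0267). The call of Col11a2 was lost with a correction for length and GC content (0.0678) and on leaving out 1 of 4 libraries, those of 385 and 425 min in Ex5 and of 230 and 385 min in Ex4 (at most 0.0823). Col27a1 (14.7 CPM in Ex5 and 15.0 CPM in Ex4, medians) and Col24a1 (2.59 and 2.64 CPM), other fibril-forming chains, passed neither the trend nor the level test.

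Col1a2 and Col1a1, the chains of type I collagen, both fell by the mean slope and were both higher in Ex5. Col1a2 measured 29.6 to 55.4 CPM in Ex5 (median 44.9), against 29.2 to 47.2 CPM in Ex4 (median 37.3). In both experiments its last 4 libraries lay below its first 4. It fell with a slope of -0.25 ± 0.03 (edgeR, adjusted p = 1.63e-10) and was higher in Ex5 by log2 0.28 ± 0.04 (adjusted p = 3.04e-08). Col1a1 measured 1.62 to 5.45 CPM in Ex5 (median 3.60), against 0.827 to 3.90 CPM in Ex4 (median 1.34), with overlapping ranges. At log2 1.27 ± 0.15, or 2.41-fold higher in Ex5 (edgeR, adjusted p = 3.87e-09), this was the largest level difference among the 48 chains. Its slope was -0.53 ± 0.12 in Ex5 and 0.01 ± 0.16 in Ex4, and the difference between these slopes did not pass the test (edgeR, adjusted p = 0.0593). The trend call on the mean of both (-0.26 ± 0.11, adjusted p = 0.0377) was lost on leaving out 1 of 15 libraries (adjusted p at most 0.0801), and without the Ex4 library of 385 min, the highest of Ex4, the mean slope was -0.41. Per length, Col1a2 was 4.16 to 10.48 times Col1a1 in Ex5 and 4.03 to 21.9 times in Ex4, so the transcripts were far from the proportion of the type I trimer, which holds more alpha1 than alpha2 chains.

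Col3a1 and Col5a2 lie next to each other on chromosome 1, 24.6 kb apart, and changed alike. Col3a1, the type III collagen chain, measured 1.62 to 3.78 CPM in Ex5 (median 2.61), against 2.48 to 4.78 CPM in Ex4 (median 3.90). It was lowest in an early library and highest in a late one in both experiments, at 180 and 425 min in Ex5 and at 155 and 327 min in Ex4. It rose with a slope of 0.32 ± 0.05 (edgeR, adjusted p = 3.28e-07) and was lower in Ex5 (log2 -0.62 ± 0.07, adjusted p = 3.58e-10). Col5a2, the second type V chain, ranged from 2.33 to 4.43 CPM in Ex5 and 3.81 to 6.00 CPM in Ex4, with a slope of 0.19 ± 0.05 and a level difference of log2 -0.54 ± 0.07 (edgeR, adjusted p = 7.60e-04 and 1.20e-08). Not all neighbours were alike. Col6a2 and Col6a1, 85.2 kb apart, had slopes of -0.19 and 0.06 and level differences of log2 -0.21 and 0.20, and Col1a1 and Itga3, 91.4 kb apart, had level differences of log2 1.27 and -1.12.

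The fibril-associated collagens, which sit on the surface of fibrils, held the steepest slopes of the collagens in both directions. Col20a1 measured 1.27 to 8.10 CPM in Ex5 (median 1.99), against 1.53 to 3.58 CPM in Ex4 (median 2.01). It was highest in the first library of each experiment, and its last 4 libraries averaged 1.62 CPM in Ex5, against 5.80 CPM in the first 4, and 1.81 CPM in Ex4, against 3.13 CPM in the first 4. Its slope was -0.69 ± 0.08 (edgeR, adjusted p = 2.18e-09). Its level difference at 285 min, log2 0.32 ± 0.12 (edgeR, adjusted p = 0.0182), was lost without the Ex5 library of 385 min (0.0516). It was also lost when the Ex5 times of all libraries were shifted so that the Hes7 peaks of both experiments coincided (log2 0.08, edgeR, adjusted p = 0.599). Col9a1, a chain of the type IX collagen of cartilage, measured 0.879 to 3.25 CPM in Ex5 (median 1.95), against 0.892 to 2.03 CPM in Ex4 (median 1.34). It was highest at 405 min in both experiments, rose with a slope of 0.43 ± 0.07 (edgeR, adjusted p = 7.74e-07) and was higher in Ex5 by log2 0.35 ± 0.09 (adjusted p = 0.00187).

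Its partner Col9a3 (2.08 to 3.72 CPM in Ex5, 2.08 to 3.22 CPM in Ex4) had a slope of the opposite sign, -0.10 ± 0.04 (edgeR, adjusted p = 0.0473), but 6.07% of its exon length is shared with Tcfl5 on the other strand. That call was lost on leaving out 1 of 21 libraries (adjusted p at most 0.127) and with DESeq2 (0.0925) and limma-voom (0.0561). Col22a1 fell with a slope of -0.18 ± 0.04 (edgeR, adjusted p = 9.13e-05, 4.67 to 8.56 CPM in Ex5 and 5.62 to 8.51 CPM in Ex4). Col12a1 (median 3.82 CPM in Ex5 and 3.32 CPM in Ex4) and Col16a1 (2.52 and 2.30 CPM) passed neither the trend nor the level test.

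The transmembrane collagens, anchored in the cell surface, were higher in Ex5 in all 3 cases. Col23a1 measured 7.28 to 10.6 CPM in Ex5 (median 9.32), against 4.52 to 6.25 CPM in Ex4 (median 5.38). All its Ex5 libraries lay above all Ex4 libraries, at log2 0.76 ± 0.05 (edgeR, adjusted p = 1.86e-15), with no trend call (slope -0.01 ± 0.04, adjusted p = 0.839). Col13a1 was the most abundant of the 3 at 21.4 ± 2.24 TPM in Ex5 and 17.7 ± 1.34 TPM in Ex4 (SD), a difference of log2 0.32 ± 0.04 (edgeR, adjusted p = 9.35e-08). Col25a1, first known from the amyloid plaques of the human brain, measured 4.82 to 8.96 CPM in Ex5 (median 6.10), against 4.37 to 6.49 CPM in Ex4 (median 5.52). Its level difference was log2 0.24 ± 0.06 (edgeR, adjusted p = 3.32e-04).

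Col26a1 also had no overlap between experiments. It measured 16.1 to 21.1 CPM in Ex5 (median 17.9), against 7.72 to 11.2 CPM in Ex4 (median 9.89), a difference of log2 0.86 ± 0.04 or 1.81-fold (edgeR, adjusted p = 4.21e-22). The type VI collagen chains, which form beaded microfibrils, differed in direction between the experiments. Col6a1 (3.55 to 6.12 CPM in Ex5, 3.22 to 5.09 CPM in Ex4) was higher in Ex5 by log2 0.20 ± 0.06 (edgeR, adjusted p = 0.00494). Col6a2 measured 1.89 to 3.68 CPM in Ex5 (median 2.91), against 2.61 to 4.05 CPM in Ex4 (median 3.25). It was lower in Ex5 (log2 -0.21 ± 0.07, edgeR, adjusted p = 0.00867) and fell with a slope of -0.19 ± 0.05 (adjusted p = 8.04e-04).

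**Figure D2:**
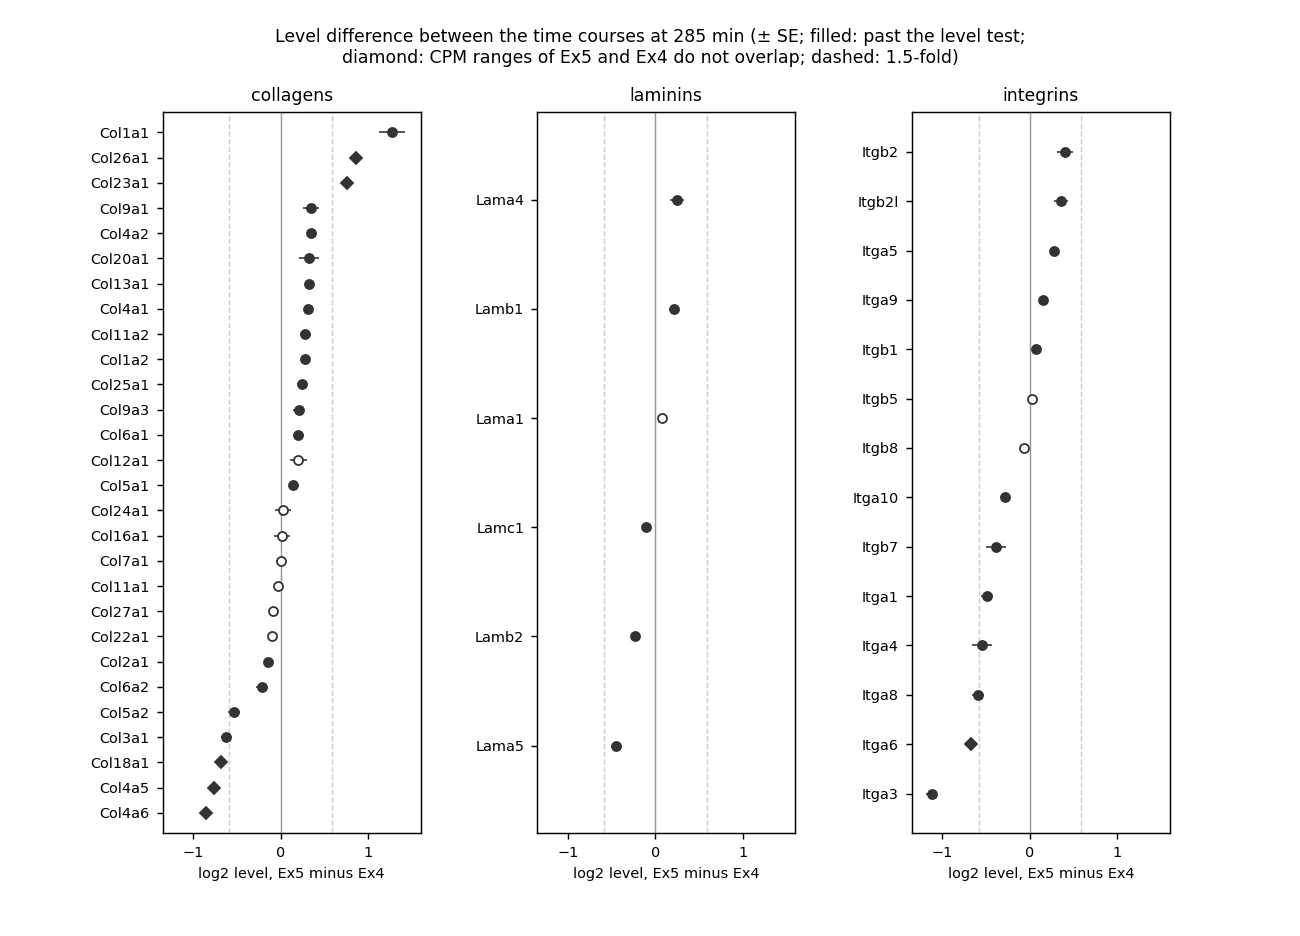
Level of each of the 48 genes in Ex5 minus Ex4 at 285 min (x axis, log2, ± SE), by family and sorted. Filled points passed the level test, diamonds mark the 6 genes whose CPM ranges did not overlap, and dashed lines mark 1.5-fold; Col1a1 is farthest to the right at 1.27 and Itga3 farthest to the left at -1.12.

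Among the receptors, the beta1 chain was the most abundant of the 48 transcripts per length. Itgb1, which pairs with most of the alpha chains below, stood at 228 ± 9.20 TPM in Ex5 and 223 ± 14.9 TPM in Ex4 (SD). It measured 243 to 281 CPM in Ex5 (median 268), against 233 to 290 CPM in Ex4 (median 253). All Ex5 libraries lay within the range of Ex4, and its level difference, though past the test, was 1.05-fold (log2 0.07 ± 0.02, edgeR, adjusted p = 0.00397). Its slope of 0.03 ± 0.01 did not pass (adjusted p = 0.0541). Itgb5, whose known partner is the alphav chain with which it binds vitronectin, measured 126 to 177 CPM in Ex5 (median 153), against 110 to 180 CPM in Ex4 (median 146). Its last 4 libraries averaged 169 CPM in Ex5, against 134 CPM in the first 4, and 170 CPM in Ex4, against 119 CPM in the first 4. It rose with a slope of 0.21 ± 0.02 (edgeR, adjusted p = 3.87e-13). Itgav had a slope of -0.07 ± 0.03 (adjusted p = 0.0251), so the pair did not move together.

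Itga5, the alpha chain of the main fibronectin receptor, measured 111 to 178 CPM in Ex5 (median 144), against 96.3 to 131 CPM in Ex4 (median 116). In both experiments its last 4 libraries lay above its first 4. It rose with a slope of 0.14 ± 0.02 (edgeR, adjusted p = 2.39e-07) and was higher in Ex5 by log2 0.28 ± 0.03 (adjusted p = 6.72e-11). Itga6, the alpha chain of laminin receptors, measured 57.6 to 80.1 CPM in Ex5 (median 64.6), against 96.7 to 121 CPM in Ex4 (median 105). All Ex5 libraries lay below all Ex4 libraries, and in each experiment the last 4 lay below the first 4. Itga6 was lower in Ex5 by log2 -0.67 ± 0.03 (edgeR, adjusted p = 8.86e-23) and fell with a slope of -0.11 ± 0.02 (adjusted p = 6.45e-06). Per length, Itga5 stood at 4.70 times Itga6 in the last 4 libraries of Ex5, against 3.16 times in the first 4, and at 2.35 times in the last 4 libraries of Ex4, against 1.603 times in the first 4.

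Itga3, the other laminin-binding alpha chain, had the steepest fall of the integrins. It measured 1.31 to 5.24 CPM in Ex5 (median 2.49), against 4.31 to 7.29 CPM in Ex4 (median 5.73). The ranges met through 2 Ex5 libraries, those of 165 and 195 min. Itga3 was 0.460 of its Ex4 level in Ex5 (log2 -1.12 ± 0.06, edgeR, adjusted p = 3.68e-18), and its slope of -0.50 ± 0.04 (adjusted p = 4.26e-12) comes to a fold of 0.421 over 250 min. Of the 48 chains 8 rose and were higher in Ex5 (background 8.33%), 5 rose and were lower (background 8.09%) and 4 fell and were higher (background 7.365%). Another 8 both fell and were lower in Ex5 (background 7.66%). These were Itga3, Itga6, Itgb7, Lama5 (slope near 0 in Ex4), Col18a1, Col4a5, Col4a6 and Col6a2. The same held for 3 of the 5 expressed epiblast markers, Pou5f1, Cdh1 and Sox2, and for the PSM markers T, Cdx2, Wnt3a and Fgf8. Of all 11 PSM markers 4 rose and 5 fell, while 7 were higher in Ex5 and 4 lower. Of the other 2 epiblast markers, Epcam fell with no level call (log2 0.04, edgeR, adjusted p = 0.206). Dnmt3b, the most abundant, rose (slope 0.06 ± 0.01, edgeR, adjusted p = 3.84e-04) and was lower in Ex5 (log2 -0.11). The sum of all 9 epiblast markers averaged 273 CPM in the last 4 libraries of Ex5, against 352 CPM in the first 4, and 331 CPM in the last 4 libraries of Ex4, against 434.9 CPM in the first 4. The part of these markers in those results was not tested.

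Itga8, which like Itga5 binds the RGD motif of matrix proteins, measured 1.43 to 4.94 CPM in Ex5 (median 2.67), against 3.38 to 5.18 CPM in Ex4 (median 4.00). It was lowest at 165 min in Ex5, and the ranges overlapped through the Ex5 libraries of 345, 385 and 405 min. It rose with a slope of 0.22 ± 0.05 (edgeR, adjusted p = 3.21e-04) and was lower in Ex5 (log2 -0.59 ± 0.07, adjusted p = 7.57e-09). The collagen receptor chains were low. Itga10 measured 2.91 to 5.79 CPM in Ex5 (median 4.09), against 3.29 to 7.31 CPM in Ex4 (median 4.83), and was highest in the last library of each experiment. Its slope of 0.34 ± 0.04 (edgeR, adjusted p = 6.79e-09) was the steepest rise of the integrins, with 33.5% of its exon length also assigned to the gene model Gm42957 on the same strand. Itga1 (2.62 to 5.11 CPM in Ex5, 4.42 to 6.81 CPM in Ex4) was lower in Ex5 (log2 -0.49 ± 0.07, edgeR, adjusted p = 2.47e-07), with a slope of 0.10 ± 0.05 (adjusted p = 0.0932).

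Itga9 and Itga4 encode related alpha chains that bind fibronectin variants and other ligands. Itga9 measured 5.61 to 8.57 CPM in Ex5 (median 6.41), against 4.58 to 7.63 CPM in Ex4 (median 5.96), and its last 4 libraries lay above its first 4 in both. It rose with a slope of 0.20 ± 0.03 (edgeR, adjusted p = 1.64e-06). Itga4 was the least abundant chain per length, at 0.233 ± 0.066 TPM in Ex5 and 0.344 ± 0.059 TPM in Ex4 (SD), and was lower in Ex5 (log2 -0.55 ± 0.11, edgeR, adjusted p = 6.57e-05). The beta chains known from white blood cells were near the lower limit. Itgb7 measured 0.490 to 1.70 CPM in Ex5 (median 0.952), against 0.764 to 1.71 CPM in Ex4 (median 1.16), or as few as 10 counts in a library. It fell with a slope of -0.35 ± 0.08 (edgeR, adjusted p = 3.87e-04) and was lower in Ex5 (log2 -0.39 ± 0.115, adjusted p = 0.00419). Itgb2 (1.34 to 2.52 CPM in Ex5, 0.898 to 1.81 CPM in Ex4, medians 1.82 and 1.33) and Itgb2l (1.99 to 3.18 CPM in Ex5, 1.32 to 2.44 CPM in Ex4, medians 2.49 and 1.98) were higher in Ex5 by log2 0.40 ± 0.09 and 0.36 ± 0.08 (edgeR, adjusted p = 4.04e-04 and 2.41e-04). Counts of these similar beta chains may be split between them.

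The slope differed between Ex5 and Ex4 for 10 of the 48 chains, against 16.1% of all tested genes. It was lower in Ex5 for 8 (background 9.06%) and higher for 2 (background 7.03%). In Itgb8 and Col2a1 the slopes had opposite signs, each more than 2 SE from 0. Itgb8, which pairs with the alphav chain and activates TGF-β, measured 20.9 to 36.7 CPM in Ex5 (median 26.3), against 22.8 to 37.3 CPM in Ex4 (median 27.3). Its last 4 libraries averaged 22.2 CPM in Ex5, against 32.5 CPM in the first 4, and 30.8 CPM in Ex4, against 25.4 CPM in the first 4. The ranges overlapped almost wholly, with the early libraries high in Ex5 and the 405 min library high in Ex4. Its slopes were -0.22 ± 0.04 in Ex5 and 0.12 ± 0.04 in Ex4, a difference of -0.34 ± 0.05 (edgeR, adjusted p = 2.09e-05). Col2a1, the collagen of cartilage and notochord, measured 14.8 to 23.9 CPM in Ex5 (median 19.5), against 16.2 to 30.7 CPM in Ex4 (median 21.2). It was highest at 210 min in Ex5 and at 385 min in Ex4. Its slopes were -0.14 ± 0.05 in Ex5 and 0.20 ± 0.05 in Ex4, a difference of -0.34 ± 0.06 (edgeR, adjusted p = 3.40e-04).

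The other differences were of size, or a slope near 0 in 1 experiment. Itga3 (-0.70 in Ex5, -0.30 in Ex4) and Col20a1 (-0.97 in Ex5, -0.40 in Ex4) had steeper falls in Ex5. Lamb1 (-0.01 in Ex5, 0.14 in Ex4) and Col26a1 (-0.03 in Ex5, 0.13 in Ex4) had a slope near 0 in Ex5. Itgb5 (0.15 in Ex5, 0.27 in Ex4) and Itga9 (0.11 in Ex5, 0.29 in Ex4) had steeper rises in Ex4. Col25a1 (0.34 in Ex5, 0.07 in Ex4) and Itga8 (0.39 in Ex5, 0.06 in Ex4) had steeper rises in Ex5. The differences of Itga9 and Itga8 were lost without 1 library each, the Ex5 library of 180 min for Itga9 (edgeR, adjusted p = 0.0540) and that of 405 min for Itga8 (0.0525). The Ex4 libraries of 385 and 405 min were the highest of their experiment for 10 and 9 of the 48 chains, among them Col2a1 and Col26a1 at 385 min and Itgb8 and Lamb1 at 405 min. That of 155 min was the lowest for 10. Likewise in Ex5, the library of 385 min was the highest for 8 chains and that of 425 min for 6, and that of 165 min was the lowest for 9. The shares of all tested genes with such extremes were not computed. The part of these libraries in the slope differences was not tested.

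**Figure D3:**
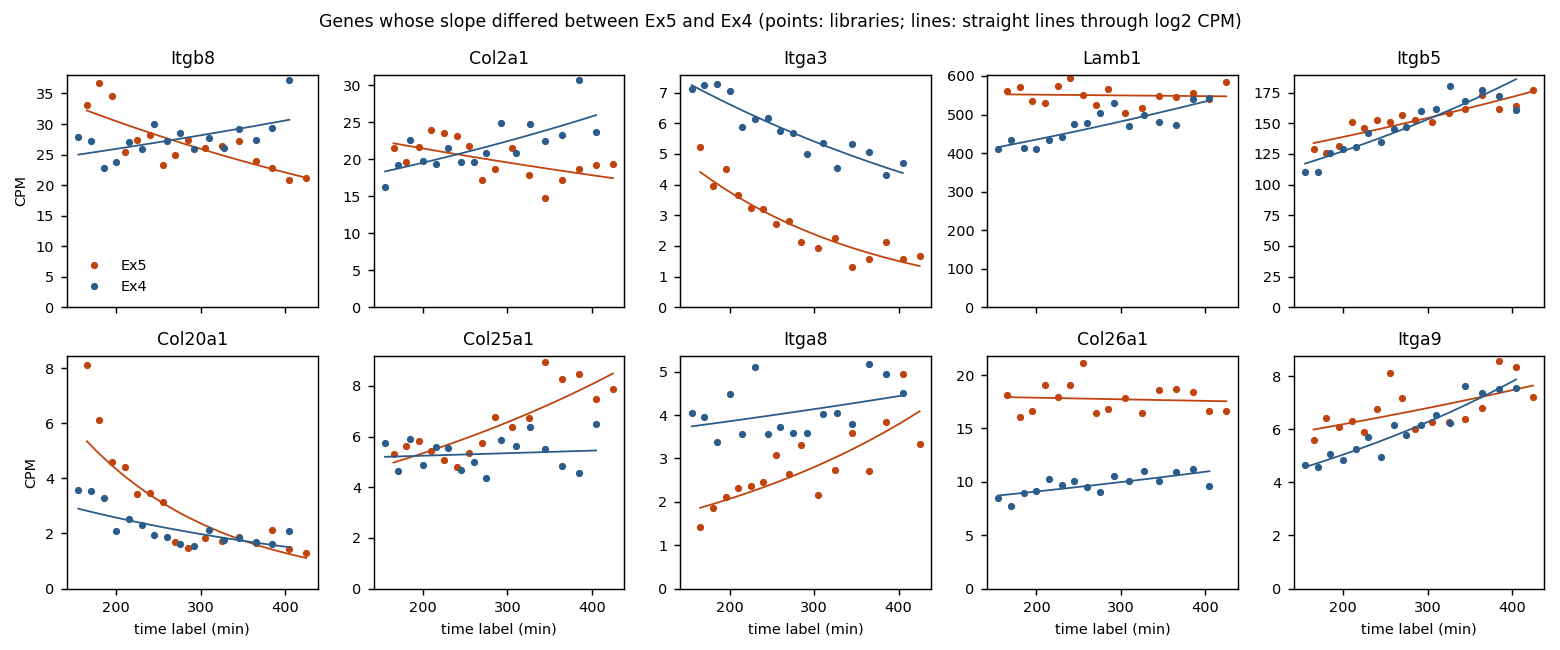
CPM (y axis, from 0) of the 10 genes whose slope differed between Ex5 (orange) and Ex4 (blue), against the time label in minutes (x axis). Points are libraries and lines are straight lines through log2 CPM; the lines of Itgb8 and Col2a1 cross, falling in Ex5 and rising in Ex4, while those of Itga3 both fall.

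Rhythm with the Hes7 clock, with a fitted period of 135 min and Hes7 peaks at 237 and 372 min in Ex5 and at 212 and 347 min in Ex4, was found for 1 of the 48 chains, against 1.32% of all tested genes. This was Col4a1, with a peak 1.12 times the trough (log2 0.16, edgeR, adjusted p = 0.0315) and a peak at -1.47 min relative to that of Hes7. With level and trend removed, the 5 Ex5 libraries within 20 min of a Hes7 peak had 0.03 to 0.16 on the log2 scale, and the 5 libraries in the opposite part of the cycle -0.18 to -0.03. In Ex4 the matching values were -0.04 to 0.06 near the peak and -0.19 to 0.12 opposite it. The groups were apart in Ex5 and overlapped in Ex4, where the fitted fold was 1.08 against 1.16 in Ex5. The difference in rhythm between the experiments did not pass the test (unadjusted p = 0.206). The call was lost on leaving out 1 of 9 libraries (adjusted p at most 0.0999), those of 165, 225, 240, 255, 385 and 425 min in Ex5 and those of 155, 275 and 405 min in Ex4. It was also lost with periods of 120 min (0.0520), 150 min (0.173) and 180 min (0.663) and with no time trend (0.107).

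Col4a2, which shares the promoter bases shown above, had nearly the same fitted cycle, 1.12-fold with a peak at -4.68 min relative to Hes7, but did not pass (edgeR, adjusted p = 0.173). Its 5 Ex5 libraries near the Hes7 peak had 0.00 to 0.19 on the log2 scale with trend removed, and the opposite 5 had -0.11 to 0.07. Values of Col4a2 in Ex4 were -0.09 to 0.05 near the peak and -0.17 to 0.17 opposite it, so the groups overlapped in both experiments. At an unadjusted p under 0.05, 14 of the 48 chains had a rhythm, against 13% of all tested genes, namely 9 collagens, 5 integrins and 0 laminins. Their fitted peak times ran from -64.2 min (Itgb8) to 18.2 min (Itga9) relative to the Hes7 peak, with 8 of the 14 within 10 min of it, 4 earlier and 2 later. The median fold was 1.09 for the 48 chains and 1.05 for all tested genes, and no chain exceeded 1.21. A fitted fold is never below 1, and the chains were of lower abundance, with a median of 7.75 CPM against 35.1 CPM. By family the median fold was 1.095 for collagens, 1.085 for integrins and 1.04 for the laminins, whose median abundance was 174 CPM. The rhythm test of a difference between the experiments gave 0 calls by edgeR among the 48 chains (background 0%), with 4 at an unadjusted p under 0.05 (Col5a1, Lamb1, Lama1 and Lamb2, background 5.47%) and 0 calls by DESeq2 and by limma-voom.

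**Figure D4:**
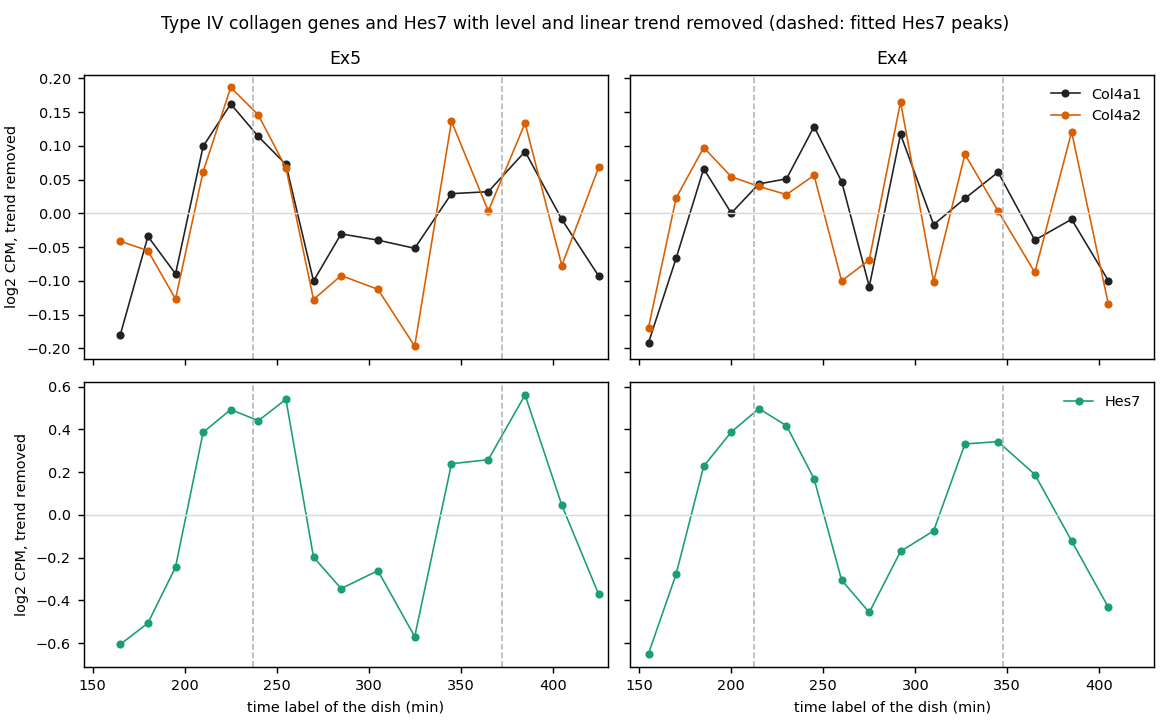
Log2 CPM with level and linear trend removed (y axis) of Col4a1 and Col4a2 (top) and of Hes7 (bottom, wider axis) against the time label in minutes (x axis), Ex5 on the left and Ex4 on the right. Dashed lines mark the fitted Hes7 peaks at 237 and 372 min in Ex5 and 212 and 347 min in Ex4; Col4a1 lies high around both peaks in Ex5 (0.03 to 0.16) and less clearly so in Ex4 (-0.04 to 0.06).

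RefSeq promoter windows were matched for 36 of the 48 chains and searched on both strands. GGGCGG was found in 22 of the 36 windows, against 35.9% of 27025 windows of the same length, CCAAT in 11 (37.9%) and TATAAA, the TATA box, in 3 (14.2%). Those 27025 windows were taken whether or not the gene was expressed, while the chains were chosen by expression. The shares among expressed genes were not computed. Of sites bound by Hes proteins, CACGCG was found in 1 window (9.36%), CACNAG in 14 (42.6%) and CACGTG, the E-box, in 0 (7.24%). GCGTG, the core of the hypoxia response element, which every CACGCG match also holds on the opposite strand, was found in 11 (32.5%). The Col4a1 window printed above holds 2 matches to CACNAG and the Col4a2 window 0.

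The proteins that surround these chains were counted from lists of known partners. Of 20 expressed matrix partners 7 rose and 5 fell. Fn1, the fibronectin gene and ligand of the receptor of Itga5, averaged 1153 CPM in Ex5 and 968 CPM in Ex4 and rose with a slope of 0.14 ± 0.03 (edgeR, adjusted p = 7.63e-05), close to that of Itga5. Fbn2 (0.47 ± 0.04), Egflam (0.42 ± 0.02) and Smoc1 (0.39 ± 0.03) rose most, while Smoc2 (-0.53 ± 0.06) and Frem2 (-0.42 ± 0.06) fell. The nidogens Nid1 and Nid2, which link laminin to type IV collagen, had slopes of -0.01 ± 0.03 and 0.02 ± 0.01 that did not pass (edgeR, adjusted p = 0.819 and 0.2496).

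Of 24 expressed enzymes and chaperones of collagen synthesis 13 rose and 2 fell. Loxl2, a cross-linking oxidase, had the steepest slope at 0.58 ± 0.07 and was higher in Ex5 by log2 1.10 (edgeR, adjusted p = 3.00e-09 and 1.97e-12). The prolyl hydroxylase chains P4ha1 (0.24 ± 0.03) and P4ha2 (0.20 ± 0.04), the prolyl 3-hydroxylase P3h1 (0.20 ± 0.02) and the collagen chaperone Serpinh1 (0.11 ± 0.01) also rose. Plod1, a lysyl hydroxylase, fell (-0.15 ± 0.02). Of 22 adhesion proteins inside the cell 9 rose, with Tln2 (0.16 ± 0.02) and the kinase-like linker Ilk (0.14 ± 0.02), and 5 fell, with Tns2 (-0.21 ± 0.02) and Vcl (-0.14 ± 0.02). Of 18 matrix proteases and inhibitors 8 rose, with Adamts9 (0.36 ± 0.04) and Adam19 (0.34 ± 0.02), and 4 fell, with the inhibitor Timp3 (-0.27 ± 0.04). Of 11 other matrix receptors 3 rose and 4 fell, with Bcam, a laminin receptor, at -0.32 ± 0.03. All of these are slopes, and the shares of rising and falling genes over the whole table were 26.8% and 26.6%.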

How the data were processed

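Strand-specific mRNA libraries were made from 200 ng of total RNA, per the labels' protocols. The authors deposited raw read counts per gene symbol. The submitters' processing notes name HISAT2 2.1.0, HTSeq 0.6.1, cutadapt 1.14, bcl2fastq 2.17.1.14 and the build mm10. Which annotation and strand setting HTSeq used is not given in the sources used here. Every column was mapped to a sample by its description (0 columns unused). Depth (16.1 to 29.5 M counts) left the least abundant chains with as few as 10 counts in a library, and 0 library pairs were identical.

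TMM factors (edgeR 4.0.16, R 4.3.3) gave CPM, and TPM were computed with exon lengths of GENCODE M21. Genes at 1 CPM or more in 16 or more libraries (11772) entered the fit, which had a level and a slope for each experiment, with 285 min as time 0, and a cosine and a sine of the Hes7 phase common to both, whose period was 135 min (95% interval 129 to 141 min). Trend, slope difference, level difference, rhythm and rhythm difference were tested with glmQLFTest, Benjamini-Hochberg at 0.05. The procedure was tested on simulated data. Replicates are dishes, so p-values measure the spread of dishes about the fitted curves within 2 cultures.

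Alternatives were DESeq2 1.42.0 and its size factors, limma-voom (limma 3.58.1), other filters, periods, time models and windows, a length and GC correction, each experiment alone, a replicate block and each library left out. All 48 chains were named, with ranges for the most abundant, the steepest, the most different and those past the slope or rhythm tests. The chains, partner lists and markers were chosen with earlier results of these data known. Promoter sequences came from RefSeq (GRCm38.p6).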

Additional observations from a re-analysis of the deposited data

Results flagged for a closer look

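Of the 48 chains, 10 had slopes over time that differed between Ex5 and Ex4 by the test of the difference itself (edgeR quasi-likelihood test, adjusted p under 0.05). The differences, Ex5 minus Ex4 in log2 per 100 min, were -0.34 for Itgb8, -0.34 for Col2a1, -0.40 for Itga3, -0.15 for Lamb1, -0.12 for Itgb5, -0.56 for Col20a1, -0.16 for Col26a1 and -0.18 for Itga9, and 0.27 for Col25a1 and 0.32 for Itga8. The share of all tested genes with such a difference was 16.1%. Experiment and culture cannot be told apart.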

How the results depend on the processing

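Each count of chains was recomputed under the alternative settings. With chains or genes of at least 5 CPM only, 18 passed the trend test (7 falling), 21 the level test (13 higher and 8 lower in Ex5) and 1 had a higher slope in Ex5, with fewer chains counted. Alone, Ex4 gave 8 falling and Ex5 10 rising chains. The rhythm count was 0 in Ex4 alone, at 120 and 150 min, with no time trend and with one phase origin, and 2 at 180 min; the cause was not tested. The trend of Lamb1 reversed to -0.0174 in Ex5 alone. Without 1 library, 25 to 33 chains passed the trend test (15 to 20 rising, 10 to 13 falling), 37 to 40 the level test, 9 to 12 the slope test and 0 to 2 the rhythm test. The rhythm count was 0 without any of 9 libraries and 2 without the Ex4 library of 292 min. Same-numbered libraries did not deviate together: the correlations of their deviations were -0.17 to 0.15, over 0.1 in 4 of 16 pairs, and 0 of 16 Ex5 libraries correlated best with their own number. With a replicate block 11 chains passed the slope-difference test (3 higher in Ex5) and 42 the level test. With the block and a length and GC correction 10 passed the slope-difference test, 4 of them higher in Ex5. In that last setting the calls of Col26a1 and Itga9 were lost (edgeR, adjusted p = 0.0511 and 0.0611), while Col4a1 and Lama1 were gained. With quadratic time the level calls of Col5a1, Col2a1, Col6a1, Col9a3, Col20a1, Itga9 and Lama4 were lost. Chains near 1 CPM rest on as few as 10 counts per library, which limits small differences.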
